A study of Mus musculus with 51 samples.

Results

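The genes described here are 38 mitosis genes, picked by name and found 38 of 38 among the 40077 genes of the deposited mouse RNA sequencing table. They comprise 8 mitotic kinases (Aurka, Aurkb, Plk1, Plk4, Cdk1, Ttk, Bub1 and Nek2), 3 cyclins with the Cdk1-activating phosphatase Cdc25c, 6 checkpoint and anaphase genes (Bub1b, Bub3, Mad2l1, Cdc20, Espl1 and Pttg1), 10 centromere and kinetochore genes (Cenpa, Cenpe, Cenpf, Ndc80, Nuf2, Spc24, Spc25, Kif2c, Incenp and Birc5), 7 spindle and cytokinesis genes (Kif11, Kif20a, Kif23, Tpx2, Prc1, Anln and Hmmr), and Mki67, Top2a and Foxm1.

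The 51 libraries came from 6 experiments on UBA1, the main ubiquitin-activating E1 enzyme, and asked what its gain, its loss and its inhibition do to tumor cells. Subcutaneous tumors of Myc-CaP, a mouse prostate cancer line with high Myc, were grown in male FVB mice of 6 to 8 weeks, and tumors of B16-BL6, a mouse melanoma line, in female C57BL/6 mice of the same age. Myc-CaP tumors carried a lentiviral Uba1 overexpression construct driven by a CMV promoter (OE, n = 4) or the empty vector (EV, n = 3), a guide RNA against Uba1 (sgUba1, n = 7) or a control guide (sgNC, n = 3), or no construct and were given vehicle (n = 6) or TAK-243, a small-molecule UBA1 inhibitor, at 25 mg/kg by vein with 2 doses a week (n = 5). B16-BL6 tumors carried sgUba1 (n = 4) or the control guide (n = 3). Cultured Myc-CaP cells, with 2 libraries a group, were left untreated, given 50 nM TAK-243 for 18 hours, 1 ng/mL interferon gamma (IFN-γ) for 18 hours, or both. Control guide (NC) and sgUba1 cells, also with 2 libraries a group, were cultured with or without the same IFN-γ. Both sgRNA arms are sublines grown from single cells with Cas9, so each may differ from its control as a clone as well as by Uba1, and the depletion was partial. The paper used independent guides against Uba1, and the sample titles do not say which of them a tumor or culture carried. Tumors were placed on both flanks, so some may share a mouse, and nothing says whether the paired culture libraries were separate cultures; p-values measure the spread between these libraries.

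Mitosis genes are switched on late in each cell cycle. Cdk1 bound to cyclin A or cyclin B drives entry into mitosis, kinetochores tie chromosomes to spindle fibers, and the spindle checkpoint holds back the anaphase-promoting complex until all chromosomes are attached. That complex is a ubiquitin ligase: with Cdc20 it marks cyclin B and securin (Pttg1) for destruction, which frees separase (Espl1) and starts anaphase. Many of these proteins are therefore both made and destroyed once per cycle, while the values below are RNA levels only. Transcription of the group depends on NF-Y at CCAAT boxes and on the DREAM and MYBL2-FOXM1 complexes at the CHR element near the gene start.

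The promoters of 5 members whose RNA is followed below show these letters. Each window holds the 250 bases before the annotated start, on the minus strand of GRCm38.p6, the RefSeq sequence of the genome build used by the submitters. Each is printed 5′ to 3′ along the gene, and overlaps no annotated exon. Capitals mark CCAAT (or ATTGG on the other strand) and the CHR letters TTTGAA or TTCGAA (or TTCAAA on the other strand). Top2a was chosen for its many motifs, Cenpf and Kif23 because they rose most with TAK-243 in cells, and Ccnb2 and Spc25 because they fell strongly there; these choices were made after the values were seen. The windows lie at chr11:99024190-99024439 for Top2a, chr1:189688087-189688336 for Cenpf, chr9:61946800-61947049 for Kif23, chr9:70421555-70421804 for Ccnb2 and chr2:69206214-69206463 for Spc25.
Top2a: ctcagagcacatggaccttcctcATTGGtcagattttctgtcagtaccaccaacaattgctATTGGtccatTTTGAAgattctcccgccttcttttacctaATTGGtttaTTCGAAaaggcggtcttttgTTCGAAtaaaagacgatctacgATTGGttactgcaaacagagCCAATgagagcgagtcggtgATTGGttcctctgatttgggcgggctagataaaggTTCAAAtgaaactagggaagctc
Cenpf: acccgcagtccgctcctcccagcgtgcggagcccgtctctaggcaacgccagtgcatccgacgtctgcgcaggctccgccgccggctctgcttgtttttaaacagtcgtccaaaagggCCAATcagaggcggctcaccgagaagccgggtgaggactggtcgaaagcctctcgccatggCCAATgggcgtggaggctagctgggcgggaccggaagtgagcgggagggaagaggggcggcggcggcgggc
Kif23: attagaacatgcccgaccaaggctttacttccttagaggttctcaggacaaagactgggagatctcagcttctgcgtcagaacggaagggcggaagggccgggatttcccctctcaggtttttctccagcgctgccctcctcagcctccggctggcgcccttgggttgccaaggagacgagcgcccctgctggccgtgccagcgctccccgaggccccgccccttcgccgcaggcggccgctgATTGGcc
Ccnb2: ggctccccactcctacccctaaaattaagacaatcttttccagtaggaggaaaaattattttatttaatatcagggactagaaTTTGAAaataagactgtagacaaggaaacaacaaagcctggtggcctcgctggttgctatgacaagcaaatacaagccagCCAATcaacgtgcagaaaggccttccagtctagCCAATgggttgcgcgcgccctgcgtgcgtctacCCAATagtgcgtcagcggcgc
Spc25: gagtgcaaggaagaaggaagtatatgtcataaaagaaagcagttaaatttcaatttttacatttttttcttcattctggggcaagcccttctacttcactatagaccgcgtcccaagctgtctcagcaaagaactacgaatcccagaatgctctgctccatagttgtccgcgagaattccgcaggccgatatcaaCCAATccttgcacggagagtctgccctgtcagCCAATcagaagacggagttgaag

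Top2a, which encodes the DNA topoisomerase that untangles sister chromatids, had 6 CCAAT and 4 CHR matches in this window. Ccnb2 had 3 CCAAT and 1 CHR, whereas Cenpf and Spc25 had 2 CCAAT each and Kif23 had 1, with no CHR letters. RefSeq promoters were found for 30 of the 38 members, which gave 32 windows. A CCAAT box was present in 75% of these windows against 33.8% of 32851 mouse promoter windows of the same length, and CHR letters in 37.5% against 17.1%. Both together were found in 34.4% of member windows against 6.02%. Of the 16 members called higher with TAK-243 in cells, 14 had a window, of which 12 held CCAAT and 6 held CHR letters, and of the 14 called lower, 9 had a window, of which 6 and 2 did; the difference was not tested. A match is only a run of letters, and its absence from this window says nothing of binding.

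Libraries held 8651963 to 38032284 estimated counts. All 38 members passed the filter on low counts in every comparison, so none was lost or gained by it. RNA levels are given as CPM, counts scaled to library size by TMM, and a member is called higher or lower where edgeR's quasi-likelihood test gave an adjusted p under 0.05, with Benjamini-Hochberg adjustment over all genes of that comparison. Uba1 RNA was 631 to 747 CPM in OE tumors and 278 to 310 CPM in EV tumors. It was 208 to 247 CPM in B16-BL6 sgUba1 tumors against 410 to 455 CPM in their controls, and 269 to 295 CPM in sgUba1 cells against 526 to 600 CPM in NC cells. In the Myc-CaP tumors labelled sgUba1, however, Uba1 was 197, 202 and 211 CPM in replicates 1 to 3 but 361 to 383 CPM in replicates 4 to 7. The control tumors had 320 to 337 CPM, so the targeted RNA was not lower in 4 of 7 tumors. The paper showed partial depletion as UBA1 protein, by immunoblot of the cells with independent guides. RNA alone does not tell whether protein was lost in those 4 tumors. Melanocyte markers summed to 12484 to 16313 CPM in B16-BL6 tumors. In bulk tumors, fewer dividing cells and less RNA per dividing cell cannot be told apart.

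The mean log2 CPM of the 38 members placed every culture library above every tumor, at 7.20 to 7.61 in cells and 4.47 to 6.94 in tumors, each experiment scaled on its own (plot of the mean level by library). Levels can be compared between genes only as TPM, which is scaled for transcript length as well as for depth. On that scale, Anln, an actin-binding scaffold of the cleavage furrow, was the highest in untreated cells at 327 ± 3.58 TPM (SD, n = 2), followed by the centromeric histone Cenpa at 290 ± 12.0 TPM and Top2a at 255 ± 3.21 TPM. The large kinetochore proteins Cenpf (36.1 ± 0.240 TPM) and Cenpe (34.8 ± 0.466 TPM) and the kinetochore subunit Ndc80 (30.2 ± 1.56 TPM) were the lowest. Neighbors in this order often differed by less than their SDs, as did Plk1 (103 ± 3.41 TPM) and Bub3 (102 ± 0.987 TPM).

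**Figure D1:**
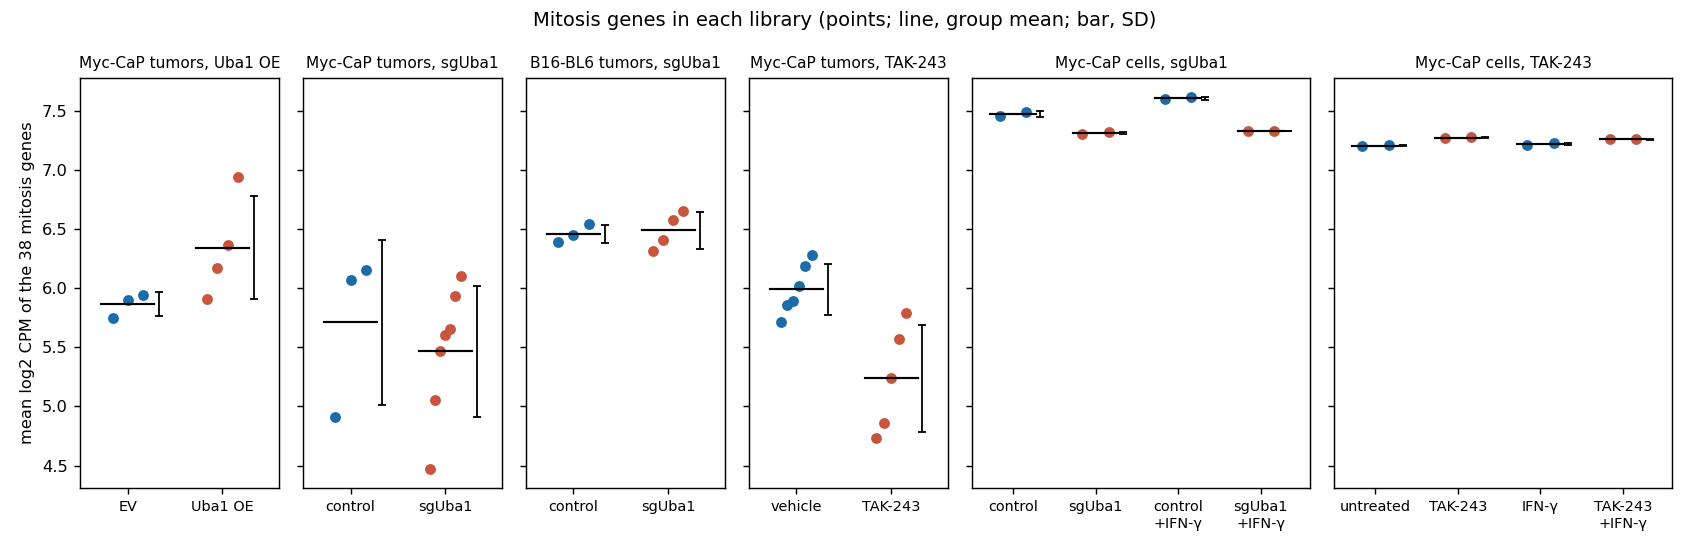
Mean log2 CPM of the 38 mitosis genes in each library (points) with group mean (line) and SD (bar), by experiment. TAK-243 tumors spread from 4.74 to 5.79 and vehicle tumors from 5.71 to 6.28; one control guide tumor lies at 4.91, below the others of its group.

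Overexpression of Uba1 in Myc-CaP tumors went with higher estimates for 37 of the 38 members, but no member passed the test. Cenpf, which loads onto kinetochores in late G2, was 125, 127 and 136 CPM in EV tumors and 305, 217, 172 and 174 CPM in OE tumors. The groups did not overlap, and the first OE tumor stood highest. Its log2 fold change was 0.75 with a standard error (SE) of 0.199 and an edgeR adjusted p of 0.145, the lowest of the 38. Anln was 234, 236 and 239.7 CPM in EV tumors and 719, 400.3, 284 and 318 CPM in OE tumors. All OE tumors again lay above all EV tumors, and the log2 fold change of 0.86 was the highest among the members (edgeR adjusted p = 0.199).

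Of the index genes, some overlapped and others did not. Mki67, a coat protein of mitotic chromosomes, was 589, 486 and 555 CPM in EV tumors and 1032, 693, 557 and 606 CPM in OE tumors, so that the third OE tumor fell inside the EV range (log2 fold change 0.41, edgeR adjusted p = 0.325). Ccnb1, the cyclin that activates Cdk1 at mitotic entry, was 58.5, 59.3 and 62.0 CPM against 151, 99.7, 65.8 and 83.5 CPM, with no overlap (0.74, edgeR adjusted p = 0.196). Aurkb, the kinase that corrects faulty chromosome attachments, was 31.8, 31.5 and 29.5 CPM against 86.0, 52.6, 33.4 and 45.4 CPM, also with no overlap (0.81, edgeR adjusted p = 0.205). The remaining index genes had log2 fold changes of 0.60 for Top2a, 0.38 for Cdk1, 0.62 for Plk1, 0.42 for Cdc20, 0.78 for the transcription factor Foxm1 and 0.31 for Bub3. Spc25, a subunit of the NDC80 kinetochore complex, was the one member with a lower estimate, at 25.8, 21.9 and 27.8 CPM in EV tumors against 29.3, 21.6, 18.6 and 28.2 CPM in OE tumors, which overlapped.

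In all, 12 members had every OE tumor above every EV tumor (Aurkb, Bub1, Ccnb1, Ccnb2, Cenpf, Kif11, Incenp, Ndc80, Prc1, Anln, Nek2 and Foxm1), beside 10.7% of all genes tested. The median log2 fold change was 0.57 for the members and 0.00 for all genes, and edgeR called 0.0269% of all genes in either direction. At an unadjusted p under 0.05, 19 members were higher and none lower, beside 10% and 8.15% of all genes, and DESeq2 called 1 higher, beside 4.76% of all genes in either direction. The first OE tumor was the highest of its group for 38 of 38 members, and without it the median was 0.32 and 1 member was called higher. Muscle markers also moved with that tumor: the 8 genes summed to 609, 186, 39.4 and 31.9 CPM in OE tumors and 32.5 to 41.9 CPM in EV tumors, with 5 of 8 tested and none called. The myeloid list summed to 138, 285, 472 and 294 CPM in OE tumors and 353 to 438 CPM in EV tumors, with 10 of 12 tested and none called; S100a8 and S100a9 were at 0 in some libraries. The T and NK cell list summed to 5.95 to 11.9 CPM in OE tumors and 17.6 to 23.6 CPM in EV tumors, with 2 of 12 tested. The keratinocyte list summed to 240 to 1146 CPM in OE tumors, highest in the first, and 41.0 to 149 CPM in EV tumors, with Krt15 alone tested and Krt5, Krt1 and Krt10 at 0 in every library. Neither list overlapped between the groups, and none of their genes was called. In Myc-CaP cultures the keratinocyte list summed to 146 to 1053 CPM, so in these tumors it does not mark keratinocytes alone. The T and NK cell list summed to 2.42 to 8.17 CPM in the same cultures, a range that the sums of OE tumors overlap. The part of these lists in the result was not tested.

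TAK-243 in mice went with lower estimates for all 38 members, by 0.34 to 1.12 on the log2 scale, yet none passed edgeR's test. Ccna2, the cyclin of S phase and G2, was 129, 101, 131, 143, 119 and 116 CPM in vehicle tumors and 50.8, 73.3, 86.1, 39.1 and 88.7 CPM in TAK-243 tumors. Every treated tumor lay below every vehicle tumor, and the log2 fold change was −0.86 (SE 0.192, edgeR adjusted p = 0.1). Cdk1 was 78.8, 55.3, 70.4, 73.1, 57.5 and 61.8 CPM against 29.5, 42.5, 48.4, 24.8 and 50.1 CPM. These groups did not overlap either (−0.76, edgeR adjusted p = 0.115).

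Aurkb had the lowest estimate of the 38, with 67.3, 32.9, 43.3, 44.8, 31.7 and 27.5 CPM in vehicle tumors and 11.8, 21.8, 29.0, 8.66 and 23.7 CPM in TAK-243 tumors. A single treated tumor, the third, overlapped the vehicle range (−1.12, SE 0.313, edgeR adjusted p = 0.151). Mki67 was 701, 423, 529.7, 612, 495 and 526 CPM against 249, 339.8, 345, 244 and 514 CPM. Here the fifth TAK-243 tumor lay among the vehicle tumors (−0.69, edgeR adjusted p = 0.147). Bub3, a checkpoint adaptor, differed least, at 63.4 to 76.6 CPM in vehicle tumors and 47.2 to 62.0 CPM in TAK-243 tumors, with no overlap (−0.34, SE 0.0839, edgeR adjusted p = 0.120). Top2a (−0.88), Ccnb1 (−0.71), Plk1 (−0.83), Cdc20 (−0.63) and Foxm1 (−0.80) also had lower estimates. By role, the medians ran from −0.59 for the checkpoint and anaphase genes to −0.80 for Mki67, Top2a and Foxm1, so no role stood out.

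For 11 members every treated tumor was below every vehicle tumor (Plk4, Bub3, Mad2l1, Cdk1, Ccna2, Ccnb1, Kif11, Kif2c, Birc5, Nuf2 and Spc25), beside 1.15% of all genes. edgeR called 0.145% of all genes in either direction. The members' median was −0.72 and that of all genes 0.01, and 37 of 38 members were lower at an unadjusted p under 0.05, beside 7.66% of all genes. The call depended on the tool and on a single tumor. DESeq2 called 29 members lower, beside 1.9% of all genes, and edgeR without the fifth TAK-243 tumor called 23 lower, beside 1.08% of all genes. That tumor had a mean log2 CPM of 5.79, inside the vehicle range, and the other treated tumors 4.74 to 5.57. Uba1 RNA itself was 283 to 368 CPM with TAK-243 and 311 to 379 CPM with vehicle. The myeloid markers summed to 447, 451, 346, 500.4 and 246 CPM in TAK-243 tumors, in replicate order, and to 212 to 294 CPM in vehicle tumors, with 3 of 12 called higher (S100a9 by 4.03, S100a8 by 3.63 and Itgam by 0.82 on the log2 scale) and none at 0 in any library. Among treated tumors, the one with the highest mean of the members was thus the one with the lowest myeloid sum, and the myeloid part in the result was not tested.

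In Myc-CaP tumors labelled sgUba1, 34 of 38 estimates were lower and none passed the test, with a median log2 fold change of −0.25 against 0.00 for all genes. The mean log2 CPM of the members was 5.66, 6.10 and 5.93 in replicates 1 to 3, the tumors with lower Uba1 RNA, and 5.60, 4.47, 5.05 and 5.47 in replicates 4 to 7, where Uba1 RNA was not lower. All 4 of the latter lay below the former, so the lowest member levels were in tumors whose Uba1 RNA was not lower. Pairs of these tumors were also compared by chi-square per degree of freedom over the genes detected in each pair. It was 10.01 to 22.67 within replicates 1 to 3, 9.707 to 14.96 within 4 to 7 and 61.3 to 86.89 between them. The tumors thus fell into the same sets as by Uba1 RNA, and were tested here as a single group. Whether the sets carry different guides or sublines was not tested. With the replicate number as a block, which keeps replicates 1 to 3, the median turned to 0.19. One control tumor, replicate 2, stood apart, with a mean log2 CPM of 4.91 against 6.07 and 6.16 in the others. Mki67 was 652, 266 and 697 CPM in control tumors and 481, 624, 612, 480.1, 207, 316 and 476 CPM in tumors labelled sgUba1. Apart from that control, both controls lay above every tumor labelled sgUba1 (−0.24, edgeR adjusted p = 0.724). Incenp, the scaffold of the Aurora B complex, was the only member without overlap, at 125, 124 and 151 CPM against 92.3, 123, 99.6, 121, 60.4, 74.6 and 91.2 CPM (−0.50, edgeR adjusted p = 0.165). Of all genes, 5.38% lay fully below in the same way and edgeR called 3.04% in either direction. The other index genes ranged from −0.40 for Foxm1 to −0.06 for Cdk1, with Top2a at −0.11, Ccnb1 at −0.16, Plk1 at −0.09, Aurkb at −0.08, Cdc20 at −0.11 and Bub3 at −0.27.

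The median of the members was −0.54 without control replicate 2 and −0.04 without control replicate 3, and no member was called in either case. At an unadjusted p under 0.05, 1 member was lower, beside 10.9% of all genes, and DESeq2 called none. Control replicate 2 also had the highest myeloid sum of its group, 499 CPM against 248 and 286 CPM. The tumors labelled sgUba1 had 445 to 743 CPM, and 4 of the 11 myeloid genes tested rose (Adgre1 by 1.15, Ptprc by 1.06, Cd68 by 0.83 and C1qa by 0.82 on the log2 scale). No myeloid marker was at 0, and the part of this list in the result was not tested. The T and NK cell list summed to 13.8 to 31.3 CPM in tumors labelled sgUba1 and 10.7 to 13.4 CPM in controls, without overlap. The keratinocyte list, nearly all Krt15, summed to 1.596 to 78.2 CPM against 188 to 1300 CPM, also without overlap. Cultured NC cells had 764 and 790 CPM of the keratinocyte list, so it does not mark keratinocytes alone here. Of the marker lists of T and NK cells, fibroblasts, endothelium, muscle and keratinocytes, edgeR called only Krt15 in the 4 tumor comparisons, lower in tumors labelled sgUba1 (log2 fold change −4.80).

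B16-BL6 tumors gave no such lean. Estimates were higher for 24 members and lower for 14, with a median of 0.03 against 0.01 for all genes, and none passed the test, where edgeR called 0.724% of all genes. Mki67 was 985, 1023 and 931 CPM in control tumors and 963, 1041, 885 and 1048 CPM in sgUba1 tumors, so the groups overlapped fully (0.01, SE 0.0767). Anln was 185, 195 and 183 CPM against 209.8, 221, 214 and 233 CPM, the only member without overlap, beside 7.29% of all genes above in the same way. Its log2 fold change was 0.23 (edgeR adjusted p = 0.148; DESeq2 adjusted p = 0.0351). At an unadjusted p under 0.05, 2 members were higher and none lower, beside 8.2% and 8.11% of all genes. The myeloid list summed to 226 to 268 CPM in sgUba1 tumors and 132 to 218 CPM in controls. The T and NK cell list summed to 10.1 to 12.5 CPM against 8.64 to 9.91 CPM. Neither list overlapped between the groups or had a called gene. In Myc-CaP cultures, scaled on their own, the T and NK cell list summed to 2.42 to 8.17 CPM, close to its level in these tumors. The part of both lists was not tested. Index genes lay between −0.16 for Cdc20 and 0.11 for Top2a.

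Whether gain and loss of Uba1 moved these genes apart was tested directly. The OE effect minus the effect in tumors labelled sgUba1 was above 0 for 38 of 38 members, with a median of 0.84, and 1 member passed the test beside 10.3% of all genes. This was Incenp, with a difference of 1.06 (SE 0.320, edgeR adjusted p = 0.0450). Anln missed it at 1.48 (SE 0.459, edgeR adjusted p = 0.0505). With 4 of the 7 tumors not lower in Uba1 RNA, and those 4 the lowest of the 7 in the members' mean, the direction rests on the label. It is not shown to follow loss of Uba1 RNA, and UBA1 protein was not measured in these libraries. The call for Incenp was lost with the replicate number as a block, where 0 members were called. The sgUba1 effect did not differ detectably between B16-BL6 and Myc-CaP tumors. There, 0 members were called by edgeR, beside 1.52% of all genes, and 0 by DESeq2, beside 6.73%. At an unadjusted p under 0.05, 1 was higher and 0 were lower, beside 8.33% and 10% of all genes.

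**Figure D2:**
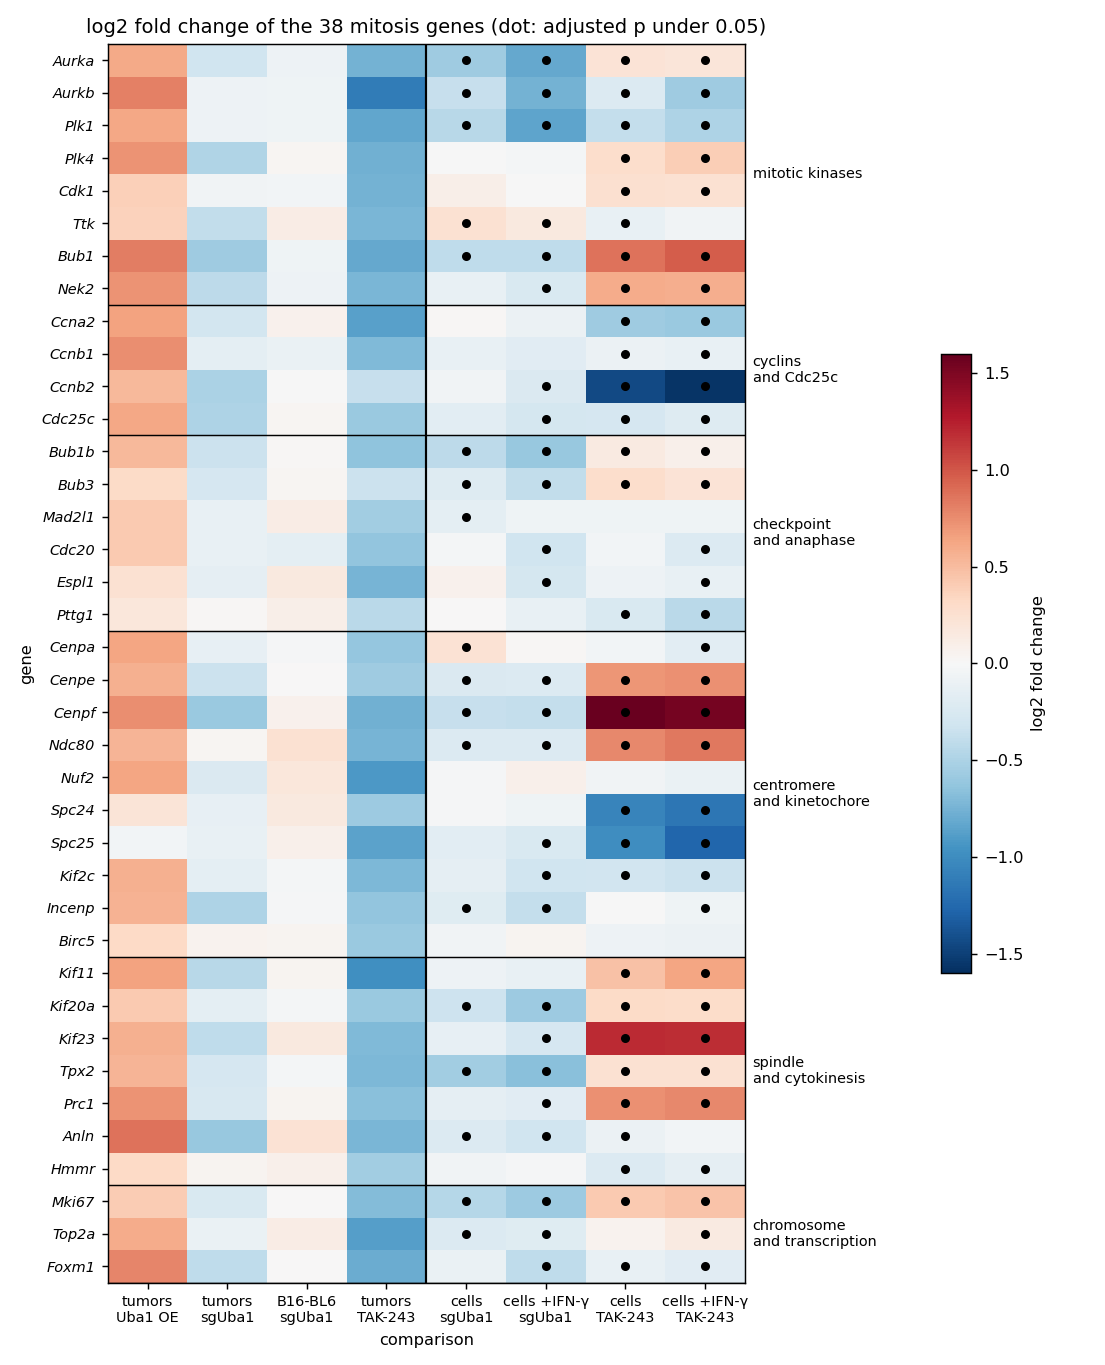
Log2 fold change of each mitosis gene (rows, by role) in each comparison (columns; tumors left of the line, cells right), with a dot where the edgeR adjusted p was under 0.05. Estimates for TAK-243 tumors are below 0 throughout without a dot, while TAK-243 cells show both directions.

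In cultured Myc-CaP cells, TAK-243 for 18 hours moved the mitosis genes in both directions within the same roles. Of the 38, 16 rose, 14 fell and 8 did not pass the test, where edgeR called 32.3% of all genes higher and 34% lower. Both shares are close to the members' own (16 and 14 of 38), so the number of calls was not particular to them. The members' median was −0.04. The direction of each member is therefore what these data add.

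Cenpf changed most. It was 233 and 232 CPM in untreated cells and 689 and 700.1 CPM with TAK-243, far apart and with close replicates, a log2 fold change of 1.58 (SE 0.0295, edgeR adjusted p = 2.7e-27). Kif23, the kinesin of the central spindle needed for cytokinesis, rose from 143 and 150.2 CPM to 337 and 334 CPM (1.19, SE 0.0338). Prc1, which bundles the same central spindle fibers, rose from 264 and 253 CPM to 429 and 428 CPM (0.73, SE 0.0311). Bub1, the kinase that recruits checkpoint proteins to kinetochores, rose from 137 and 149 CPM to 262 and 262 CPM (0.87, SE 0.0368). Of the index genes, Mki67 rose from 806 and 799 CPM to 1082 and 1069 CPM (0.42), Cdk1 by 0.26 and Bub3 by 0.29.

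Ccnb2, the second B-type cyclin, fell most. It was 114 and 118 CPM in untreated cells and 40.6 and 44.7 CPM with TAK-243, with no overlap (−1.45, SE 0.0535, edgeR adjusted p = 3.37e-20). All 4 members of the cyclin and Cdc25c group fell, but unequally: Ccna2 went from 407 and 420.0 CPM to 275 and 285 CPM (−0.56), Cdc25c fell by 0.27 and Ccnb1 went from 259 and 267 CPM to 244 and 248 CPM (−0.10, SE 0.0336, edgeR adjusted p = 0.0112). The call for Ccnb1 was lost with DESeq2 (adjusted p = 0.0749), with an offset for transcript length (edgeR adjusted p = 0.157) and without the second untreated library (edgeR adjusted p = 0.0874). The B cyclins are thus far apart in size of change although both fell. Among the other index genes, Plk1, which triggers mitotic entry and centrosome maturation, went from 145 and 137 CPM to 111 and 106 CPM (−0.38), Aurkb from 69.1 and 62.3 CPM to 57.3 and 55.0 CPM (−0.22) and Foxm1 fell by 0.12. Cdc20 (−0.04, edgeR adjusted p = 0.330) and Top2a (0.05, edgeR adjusted p = 0.0694) did not pass the test.

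The 4 subunits of the NDC80 complex, which together form the rod that grips spindle fibers, did not move together. Ndc80 rose from 43.2 and 39.8 CPM to 66.6 and 75.1 CPM (0.77, SE 0.0681, edgeR adjusted p = 3.11e-11). Its direct partner Nuf2 was 63.8 and 65.0 CPM against 59.8 and 64.3 CPM, with overlap and no call (−0.06, edgeR adjusted p = 0.435). The inner pair fell: Spc24 went from 48.1 and 42.5 CPM to 21.6 and 21.7 CPM (−1.06, SE 0.0852, edgeR adjusted p = 3.43e-12) and Spc25 from 40.1 and 40.9 CPM to 20.1 and 20.5 CPM (−0.9998, SE 0.0848, edgeR adjusted p = 1.17e-11). Subunits of a single complex thus changed in opposite directions.

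**Figure D3:**
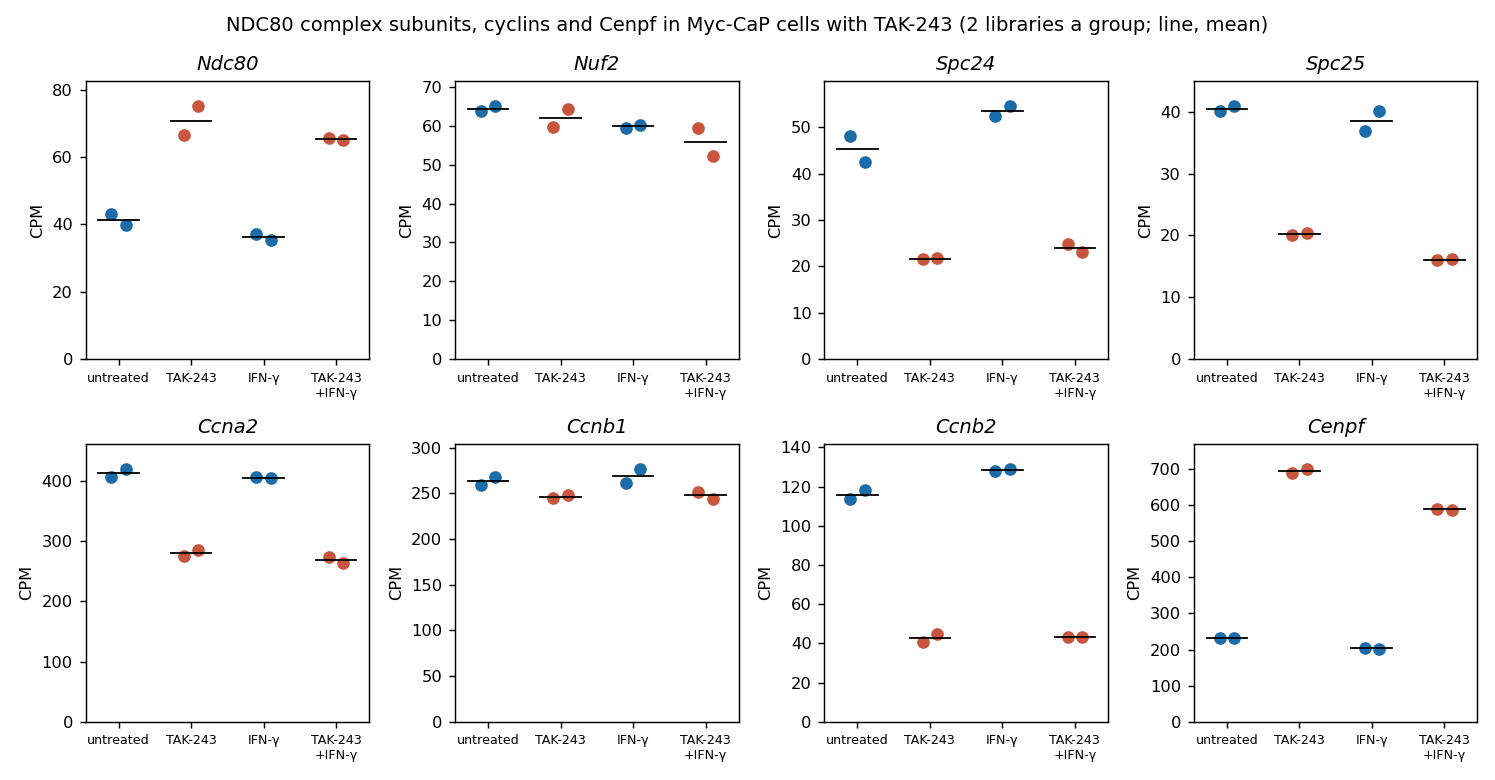
CPM of the 4 NDC80 complex subunits, the cyclins and Cenpf in untreated, TAK-243, IFN-γ and combined Myc-CaP cells (points, 2 libraries a group; line, mean; axes start at 0). Ndc80 and Cenpf are higher, and Spc24, Spc25 and Ccnb2 lower, in both TAK-243 groups.

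By role, the spindle and cytokinesis genes had 5 higher and 2 lower (Anln by 0.09 and Hmmr by 0.22), and the kinases 5 higher (Bub1, Nek2, Plk4, Cdk1 and Aurka) and 3 lower (Plk1, Aurkb and Ttk). The centromere and kinetochore genes had 3 higher (Cenpf, Ndc80 and Cenpe) and 3 lower (Spc24, Spc25 and Kif2c). Of the checkpoint and anaphase genes, Bub1b and Bub3 rose and securin (Pttg1) fell, while Mad2l1, Cdc20 and separase (Espl1) were not called.

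The pattern recurred in the libraries with IFN-γ, which share no sample with those above. With IFN-γ present, TAK-243 raised 17 members and lowered 16, beside 32% and 36.2% of all genes. The 16 members that rose without IFN-γ all rose with it, 12 of the 14 that fell also fell, and none was called in opposite directions. Cenpf was 204 and 202 CPM with IFN-γ alone and 591 and 588 CPM with both (1.54), and Ccnb2 128 and 129 CPM against 43.2 and 43.4 CPM (−1.57). Ndc80 was 37.2 and 35.5 CPM against 65.7 and 65.0 CPM (0.85) and Spc25 37.0 and 40.1 CPM against 15.97 and 16.15 CPM (−1.26). The number of members called lower fell to 8 when TPM values were tested in place of counts, a scale on which the median of all genes moved to 0.12 and Ccnb1 turned from −0.12 to 0.09.

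The effect of TAK-243 differed with IFN-γ for 2 members, beside 2.38% of all genes. Aurkb fell by 0.57 with IFN-γ and by 0.22 without it, a difference of −0.35 (SE 0.0840, edgeR adjusted p = 0.0177). Its level was 81.1 and 84.6 CPM with IFN-γ alone, higher than in untreated cells, and 55.9 and 55.4 CPM with both agents, near the level with TAK-243 alone. Kif11, the motor that pushes spindle poles apart, rose by 0.63 and by 0.46, a difference of 0.17 (edgeR adjusted p = 0.0352). The number of members called was 0 without the second untreated library, 0 without the first library with both agents and 0 with TPM values, and stayed at 2 in 2 of the 8 fits that left out a library.

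Transcript length moved with the direction of change. Members that rose with TAK-243 had longest annotated transcripts of 1905 to 11130 bases with a median of 3760.5, and members that fell 1531 to 4652 bases with a median of 2561.5. Over the 38 members, Spearman's rho of length and log2 fold change was 0.55, and it was 0.10 over 9983 other genes. Those genes had an average log2 CPM above 2, a floor not matched to the members' levels. With IFN-γ the values of rho were 0.58 and 0.15. For IFN-γ itself the sign was opposite, at −0.57 over the members of untreated cells and −0.58 in NC cells, beside −0.38 and −0.25 over other genes; the effects of TAK-243 and of IFN-γ are each measured against the same untreated libraries. In the sgUba1 comparison of cells it was −0.17 over the members and 0.04 over the rest. These are descriptions over genes of the same libraries. With an offset fitted to the length trend of all genes, the 16 members called higher with TAK-243 were called again, and 12 of the 14 called lower. Ccnb1 and Ttk lost the call, and Mad2l1 and Espl1 gained one. The offset removes only that trend, which is weaker than the relation over the members. It therefore cannot show the part of length in the members' calls, which was not tested.

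**Figure D4:**
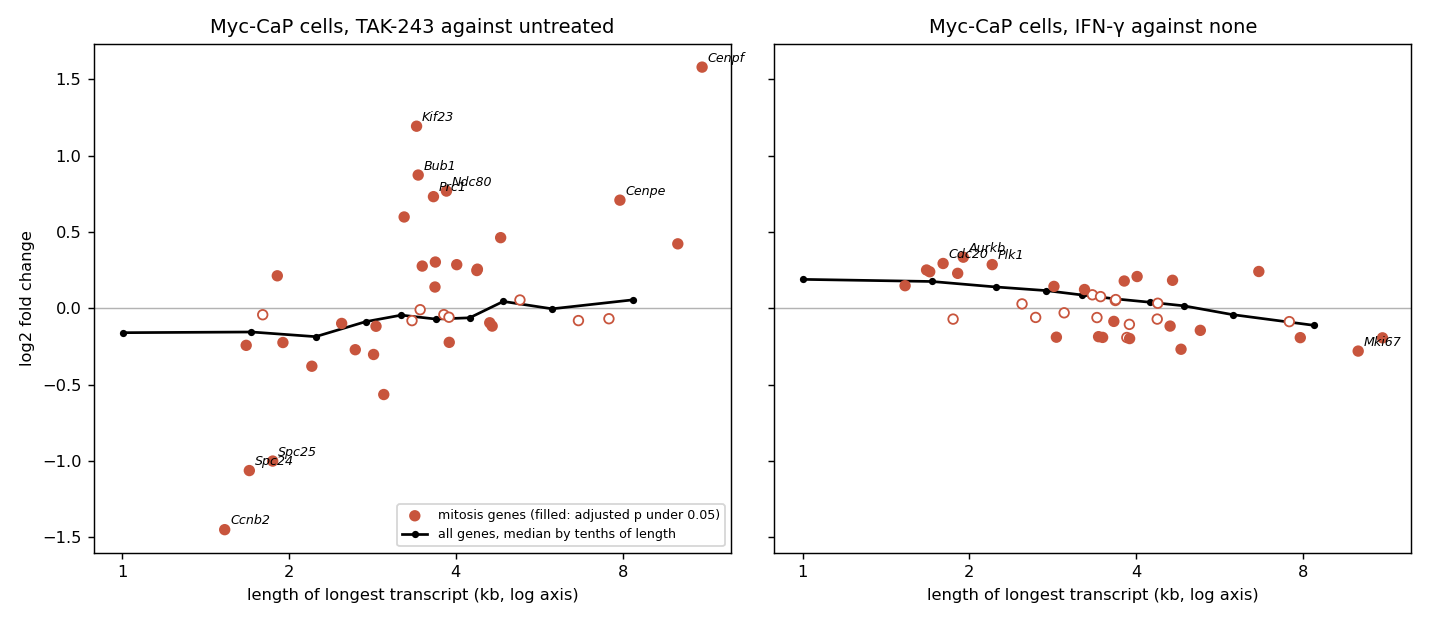
Log2 fold change against the length of the longest transcript (kb, log axis) in Myc-CaP cells. Red points are the 38 mitosis genes, filled where the edgeR adjusted p was under 0.05. The black line is the median, in bins of length, of genes with a known length and an average log2 CPM above 2. With TAK-243, the longest member, Cenpf at 11130 bases, lies highest and the shortest, Ccnb2 at 1531 bases, lowest.

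Cells with sgUba1 had many of the members lower and few higher than NC cells. Differences between the sublines as clones and partial loss of Uba1 cannot be told apart here. The NC libraries without IFN-γ were the least alike of the culture pairs. Their chi-square per degree of freedom was 18.11, against 1.841 to 5.813 for the other pairs. The test shares its estimate of spread over all groups of the experiment, so its p-values do not measure the spread of that pair alone. The same pair enters the later comparisons that use NC cells without IFN-γ. In sgUba1 cells 16 of 38 fell and 2 rose, beside 13.6% and 16.2% of all genes, with a median of −0.15. Aurka, the kinase of the spindle poles, was 133 and 135 CPM in NC cells and 91.7 and 88.8 CPM in sgUba1 cells, with no overlap (−0.57, SE 0.0458, edgeR adjusted p = 8.83e-06). Its activator Tpx2 went from 326 and 370.3 CPM to 232 and 240.2 CPM (−0.56, SE 0.0608). Mki67 was 1678 and 2001 CPM against 1332 and 1352 CPM, lower in both sgUba1 libraries although the controls lay far apart (−0.45, SE 0.0679).

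Other kinases and checkpoint genes fell less. Plk1 went from 184 and 224 CPM to 147 and 153 CPM (−0.44), Aurkb from 89.0 and 86.2 CPM to 69.0 and 66.1 CPM (−0.37), and Bub1 from 186 and 186 CPM to 138 and 142 CPM (−0.41). Its paralog Bub1b, the checkpoint protein BUBR1, was 287 CPM in both controls and 218 and 212 CPM in sgUba1 cells (−0.42), and Cenpf was 495 and 589 CPM against 413 and 428 CPM (−0.36). Top2a fell by 0.22 and Bub3 by 0.21. None of the 3 cyclins or Cdc25c passed the test, and Cdk1 (0.09), Ccnb1 (−0.12), Cdc20 (−0.03) and Foxm1 (−0.11) did not either. The genes that rose were Ttk, the checkpoint kinase MPS1, from 73.8 and 72.3 CPM to 85.5 and 87.6 CPM (0.24), and Cenpa, from 142 and 116 CPM to 151 and 151 CPM (0.23, edgeR adjusted p = 0.0410). With a TPM test 7 members fell and 1 rose, so the size of this count depends on the unit. The share of all genes called in that test is not given here.

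With IFN-γ in both arms, 25 members fell and 1 rose, beside 22.4% and 17% of all genes, with a median of −0.24. The 15 members lower in both settings included Aurka, Tpx2, Mki67, Plk1 and Bub1b. Plk1 was 230.2 and 225 CPM in NC cells with IFN-γ and 127 and 126 CPM in sgUba1 cells with IFN-γ (−0.85, SE 0.0751), and Aurka 155 and 161 CPM against 89.0 and 89.4 CPM (−0.82). Aurkb was 105 and 103 CPM against 60.2 and 62.2 CPM (−0.76). In each case the groups lay wide apart. Kif20a, the kinesin that carries Aurora B to the central spindle, fell by 0.58.

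The effect of sgUba1 differed with IFN-γ for 4 members, all more negative with it, beside 4.64% of all genes. These were Aurkb (difference −0.39, edgeR adjusted p = 0.0165), Espl1 (−0.35, edgeR adjusted p = 0.0236), Cdc20 (−0.28, edgeR adjusted p = 0.0332) and Foxm1 (−0.30, edgeR adjusted p = 0.0421). Cdc20 shows the form of it: NC cells went from 185 and 184 CPM to 218 and 213 CPM with IFN-γ, and sgUba1 cells from 182 and 179 CPM to 172 and 174 CPM. Aurkb was thus the one member whose response to both the drug and the guide differed with IFN-γ. The calls for this difference rested on single libraries. They were lost without any single library of NC cells with IFN-γ or of sgUba1 cells. More members passed without either NC library that lacked IFN-γ.

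IFN-γ alone gave small changes. In NC cells 6 members rose by edgeR, beside 3.03% of all genes higher (Aurka, Aurkb, Nek2, Bub1b, Bub3 and Cdc20, by 0.19 to 0.24). No member was lower, beside 0.856% of all genes. At an unadjusted p under 0.05, 0 members were lower, beside 6.15% of all genes. DESeq2 called 5 higher and 0 lower, beside 2.54% of all genes in either direction. These calls rested on single libraries. They were lost without either NC library with IFN-γ. More members passed without either NC library that lacked it. The members' median stayed between 0.1104 and 0.1492 in these fits. In untreated Myc-CaP cells 13 rose and 11 fell, beside 19.6% and 9.39%, with Aurkb (0.34), Plk1 (0.29), Cdc20 (0.29) and Foxm1 (0.18) higher and Mki67 (−0.28), Kif11 (−0.27) and Top2a (−0.14) lower. On the TPM scale, where the median of all genes moved to −0.14, no member was higher and 22 were lower. Directions with IFN-γ alone therefore depend on the scale.

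The drug and the guide were set against each other in cells, where each has its own control. Of the 16 members that fell in sgUba1 cells, 10 rose with TAK-243 (Mki67, Aurka, Bub1, Bub1b, Bub3, Cenpe, Cenpf, Kif20a, Tpx2 and Ndc80), 3 fell in both (Aurkb, Plk1 and Anln) and 3 were not called with the drug. Of the members that fell with TAK-243, 10 were not called in sgUba1 cells, among them Ccnb2, Ccna2, Spc24 and Spc25. Ttk rose with the guide and fell with the drug. The difference of the effects, TAK-243 minus sgUba1, passed the test for 26 members. It was above 0 for 16 and below 0 for 10, beside 25.2% and 30.2% of all genes. The difference was 1.93 for Cenpf (SE 0.0765, edgeR adjusted p = 1.17e-13), 1.31 for Kif23, 1.26 for Bub1 and 0.86 for Mki67. On the other side it was −1.41 for Ccnb2 (SE 0.0694, edgeR adjusted p = 2.33e-12), −1.07 for Spc24 and −0.86 for Spc25. For Aurkb (0.13, edgeR adjusted p = 0.165) and Plk1 (0.04, SE 0.0917, edgeR adjusted p = 0.729) no difference was detected. The arms differ in more than the means of UBA1 loss: TAK-243 acted for 18 hours on the parental line and the guide over the life of a clone, and Uba1 RNA was 594 and 565 CPM with TAK-243 against 452 and 445 CPM without it.

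**Figure D5:**
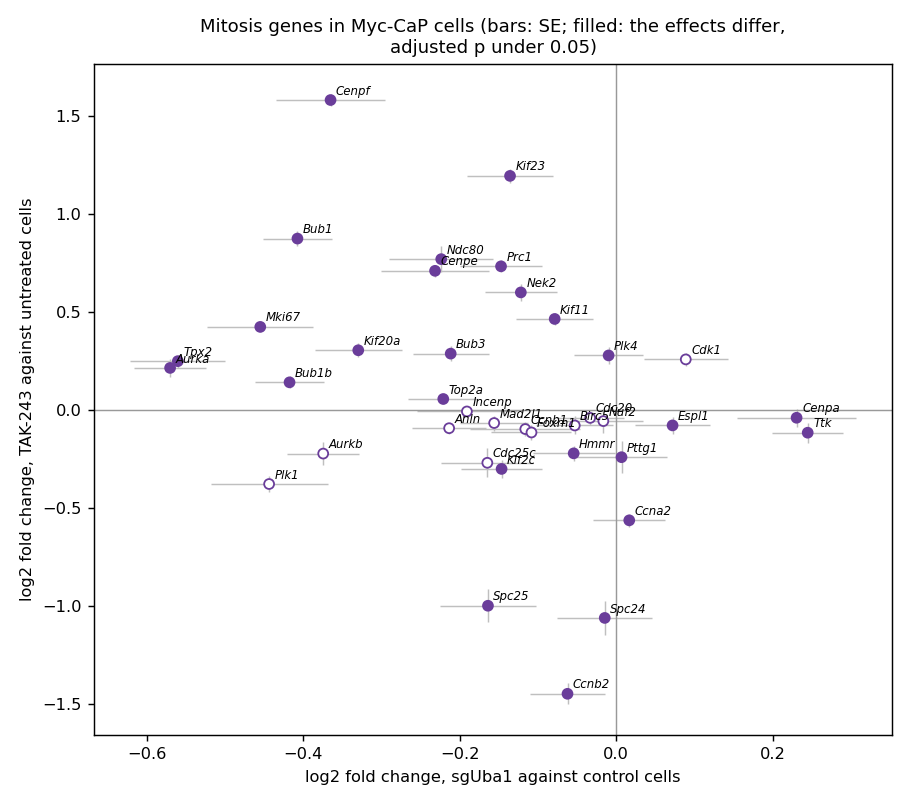
Log2 fold change of each mitosis gene with TAK-243 (vertical) against sgUba1 (horizontal) in Myc-CaP cells, with SE bars; filled points are genes whose effects differed at an edgeR adjusted p under 0.05. Cenpf lies at 1.58 and −0.36, and Ccnb2 at −1.45 and −0.06.

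Values for TAK-243 in cells and in tumors are set side by side here with no test between them. Cenpf, Kif23, Bub1 and Ndc80 rose in cells, by 0.77 to 1.58, and had estimates of −0.77, −0.70, −0.82 and −0.74 in treated tumors. Ccnb2 fell by 1.45 in cells, and in tumors it was 43.1 to 57.1 CPM with vehicle and 24.0 to 55.5 CPM with TAK-243 (−0.37, edgeR adjusted p = 0.347). Dose and time differ between them, 18 hours in culture against repeated doses in mice, and tumors hold other cells. In culture the myeloid list summed to 1.85 to 7.60 CPM, with Adgre1, C1qb, S100a9 and Itgax at 0 in every library.

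Other genes of the division program were followed in lists outside the 38, beside the 32.3% of all genes called higher and 34% called lower with TAK-243 in cells. There, 17 of 23 cohesin and condensin genes rose and 3 fell, led by Stag2 (1.17), Smc3 (1.16), Cdca5 (1.03) and Esco1 (1.02), which form, establish or stabilize cohesion between sister chromatids. Of 57 other kinetochore, spindle and cytokinesis genes, 27 rose and 16 fell, among them Kif20b (1.01), Sapcd2 (−1.65), Cenpm (−1.58) and Zwilch (−1.38). Of 18 genes of the anaphase-promoting complex and its partners, 6 rose and 8 fell, near those shares. The mitotic entry and DREAM list had 12 higher and 13 lower of 28, with the retinoblastoma-like repressors Rbl2 (−2.00) and Rbl1 (−1.39) and the Aurora A activator Bora (−1.52) among the lowest. Of 43 DNA replication genes, 25 fell and 7 rose, led by the ribonucleotide reductase subunit Rrm2 (−1.93).

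In sgUba1 cells, where 16.2% of all genes were called higher and 13.6% lower, the other kinetochore and spindle list had 21 lower and 6 higher of 57 (Sapcd2 by −0.71 and Cenpc1 by −0.64), and the anaphase-promoting complex list 8 lower and 1 higher of 18, with its E2 enzyme Ube2c at −0.65. The replication list was divided, with 11 higher and 9 lower of 43. In TAK-243 tumors no gene of these lists passed edgeR's test, but 43 of 43 replication genes (median −0.72) and 55 of 57 other kinetochore and spindle genes (median −0.63) had lower estimates, with 39 and 50 of them at an unadjusted p under 0.05, beside 7.66% of all genes, so the lower estimates in treated tumors covered genes of S phase as well as those of mitosis. In the other tumor comparisons, the genes of these lists that were called were Psrc1 (−0.79) and Nfya (0.38) in B16-BL6 tumors and the cohesin subunit Smc3 (−0.77) in Myc-CaP tumors labelled sgUba1.

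Reads of some members may not be their own. Of the 38 members, 9 share exonic bases with another annotated gene, 7 on the opposite strand and 2 on the same strand. Annotated exons of Kif20a overlap those of Cdc23 over 1271 bases, of Prc1 those of Rccd1 over 911 bases, of Cdc25c those of Gm3550 over 623 bases, of Ccna2 those of Exosc9 over 510 bases, of Nek2 those of Gm38037 over 298 bases, of Plk1 those of Gm44985 over 156 bases, and of Cdc20 those of Elovl1 over 53 bases, on opposite strands, and the strand setting of the counting is not given in the sources used here. On the same strand, Foxm1 overlaps Tex52 and Gm44596 over 241 bases and Top2a overlaps Gm23451 over 122 bases. Values of these members are uncertain to that extent. Cenpf (chr1:189640606-189688086 of GRCm38), Kif23 (chr9:61915905-61946774), Ccnb2 (chr9:70407692-70421547) and Spc24 (chr9:21755442-21760303), which the results in cells rest on, overlap no other annotated exon.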

How the data were processed

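Bulk RNA from 51 mouse libraries was sequenced. The deposited tables hold estimated counts and TPM for 40077 genes, made by the authors with kallisto on mm10, as the submitters' processing notes name them; versions and the strand setting are not given in the sources used here. The labels name poly-A selection, while the study's methods describe ribosomal RNA removal. The deposited expected counts were rounded to whole numbers. The TPM values made by the authors were used for levels between genes and as an alternative unit.

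Each experiment was normalized by TMM and filtered with filterByExpr, and groups were compared with edgeR's quasi-likelihood test (edgeR 4.0.16, R 4.3.3; threshold 0.05, Benjamini-Hochberg over all genes tested). Cell experiments were fitted with all their groups. The differences OE minus sgUba1, B16-BL6 minus Myc-CaP, and TAK-243 minus sgUba1 in cells were each fitted on the libraries of both experiments together. Those fits shared the TMM scaling, the filter and the estimate of spread. Log2 CPM used a prior count of 2. The code was tested on simulated data. Alternatives were DESeq2 1.42.0, RLE scaling, other filters, limma 3.58.1 on log2 TPM, a replicate block, other sets of libraries, each library left out and, added after the data were seen, a length offset.

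The members, gene lists and marker lists were chosen with earlier results of these data known. The members named in each comparison were up to 8 called ones with the highest absolute log2 fold change, and Mki67, Top2a, Cdk1, Ccnb1, Plk1, Aurkb, Cdc20, Foxm1 and Bub3; up to 4 called genes were named from each other list, and any other gene was chosen after its values were seen. Of 75 replicate pairs, 0 were identical. Same-numbered tumors did not deviate together (correlations −0.179 to 0.315), so replicate numbers were not used as pairs. Gene positions are those of GENCODE M21 (GRCm38). One marker gene is not reported here.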

Additional observations from a re-analysis of the deposited data

Results flagged for a closer look

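In groups of 4 to 7 tumors, a member's library was singled out when it lay far beyond the rest of its group. Of 195 such checks 4 passed, where chance gives about 5%. In the first OE tumor, Ttk was 62.16 CPM with the nearest OE tumor at 37.05 CPM, and Ccnb2 was 96.06 CPM with the nearest at 60.93 CPM. In vehicle tumors, Cenpf was 250.5 CPM in replicate 1 with the nearest at 171 CPM, and Spc24 was 25.41 CPM in replicate 4 with the nearest at 17.97 CPM.

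Effects that differed between settings by a test of the difference numbered 4 members for sgUba1 with and without IFN-γ (Aurkb, Espl1, Cdc20 and Foxm1), 2 for TAK-243 with and without IFN-γ (Aurkb and Kif11), 1 for OE against sgUba1 in Myc-CaP tumors (Incenp) and 26 for TAK-243 against sgUba1 in cells.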

How the results depend on the processing

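Of the summary values recomputed under alternatives, 421 stayed close to their value and 126 moved. Close meant within 1.5 times for a count, and within the SD between replicates for a median. That SD is wide in tumors. All 10 medians of Myc-CaP tumors labelled sgUba1 with a library left out, −0.5393 to −0.03669, counted as close. Of the values for single genes, 1583 stayed the same, 83 lost a call, 37 gained one, 24 moved otherwise and 12 reversed. The same meant that call and direction held, or that an uncalled gene changed sign within its SE. Where a value moved, the cause was not tested unless stated. A count given without the share of all genes in the same fit shows only whether that count moved. In cells a group left with 1 library is assumed to vary like the other groups. With 3 to 7 tumors a group, and 1 tumor able to move a median by over 1.5 times, the tumor comparisons limit what could be detected.

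With DESeq2, 1 member was higher in B16-BL6 and 1 in OE tumors, 29 were lower in TAK-243 tumors, 8 were higher with IFN-γ in untreated cells, 1 differed in the TAK-243 and IFN-γ interaction and 3 in OE minus sgUba1; the medians were −0.2312 for sgUba1 with IFN-γ, −0.03419 for TAK-243 cells and −0.03401 for TAK-243 with IFN-γ. With RLE scaling those medians were −0.2311, −0.03227 and −0.03357, with 3 members higher with IFN-γ in NC cells, 2 in the sgUba1 and IFN-γ interaction and 2 in OE minus sgUba1.

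With no filter, the medians were −0.05986 for TAK-243 cells, −0.08172 with IFN-γ and 0.0103 for IFN-γ in untreated cells, with 14 higher with IFN-γ in NC cells, 7 in the sgUba1 interaction and 0 in OE minus sgUba1. With at least 10 counts in every library, 1 was higher in sgUba1 cells (median −0.1738) and 0 with IFN-γ in NC cells (median 0.09488); the other medians were −0.2233 for sgUba1 with IFN-γ, −0.03628 for TAK-243 cells, −0.0006145 for TAK-243 with IFN-γ and −0.04867 for IFN-γ in untreated cells, with 2 in the sgUba1 interaction and 2 in OE minus sgUba1.

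With limma on log2(TPM + 1) and on log2(TPM + 0.1), in that order, sgUba1 cells had 1 and 1 higher and 7 and 7 lower (medians −0.1173 and −0.1185), and the medians were −0.2331 and −0.2345 for sgUba1 with IFN-γ and −0.07995 and −0.08094 for TAK-243 cells. TAK-243 with IFN-γ had 8 and 8 lower (medians 0.1022 and 0.1038, all genes 0.1231 and 0.183). IFN-γ in NC cells had 0 and 0 higher (medians 0.04119 and 0.04131), and in untreated cells 0 and 0 higher and 22 and 22 lower (medians −0.2245 and −0.2255, all genes −0.1431 and −0.1885). The interactions and OE minus sgUba1 had 0 called by both. Reversed in direction were Ccnb1 with TAK-243 and IFN-γ (0.09318 and 0.09364) and, with IFN-γ in untreated cells, Pttg1 (−0.01262 and −0.01274), Espl1 (−0.0005481 and −0.0005505), Spc24 (−0.09225 and −0.09333), Foxm1 (−0.03219 and −0.03261) and Bub3 (−0.001338 and −0.001351).

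With the length offset, 1 member was higher in sgUba1 cells and 8 with IFN-γ in untreated cells, 1 differed in the TAK-243 interaction, and the medians were −0.2341 for sgUba1 with IFN-γ and −0.02777 for TAK-243 cells. With only the groups compared, 1 was higher in sgUba1 cells and 0 with IFN-γ in NC cells (median 0.1049), and the medians were −0.05278 for TAK-243 cells, −0.04396 with IFN-γ and −0.03841 for IFN-γ in untreated cells. With the replicate block, OE minus sgUba1 had 0 called, no other count moved by over 1.5 times, and the median in Myc-CaP tumors labelled sgUba1 was 0.1903; replicate numbers did not pair the samples, with correlations of −0.179 to 0.315 in tumors and −0.0194 to 0.0572 in cells.

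As single libraries were left out, B16-BL6 tumors had 0 called (median −0.03203 to 0.07215), Myc-CaP tumors labelled sgUba1 0 (−0.5393 to −0.03669), OE tumors 0 to 1 higher (0.3197 to 0.6767) and TAK-243 tumors 0 to 23 lower (−0.8889 to −0.6067). In cells, sgUba1 had 1 to 3 higher and 12 to 20 lower (−0.1578 to −0.106), and with IFN-γ 0 to 1 and 18 to 22 (−0.2686 to −0.1892). TAK-243 had 15 to 16 higher and 11 to 20 lower (−0.1144 to −0.02874), and with IFN-γ 16 higher and 14 to 16 lower (−0.06613 to −0.05249). IFN-γ in NC cells had 0 to 18 higher (0.1104 to 0.1492), and in untreated cells 9 to 10 higher and 9 to 11 lower (−0.01929 to 0.009217). The sgUba1 interaction had 0 to 14, the TAK-243 interaction 0 to 2, OE minus sgUba1 0 to 3, with Incenp resting on most libraries, B16-BL6 minus Myc-CaP 0, and TAK-243 minus sgUba1 23 to 29.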
